A study of Mus musculus with 7 samples.

Results

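The core planar cell polarity (PCP) genes examined in SLMAP3 KO and WT embryos were Vangl1, Vangl2, Celsr1, Celsr2, Celsr3, Prickle1, Prickle2, Scrib, Fzd3 and Fzd6. They were chosen by gene symbol, and all 10 were among the 25461 genes with a value. Each library came from the RNA of 1 whole mouse embryo at E11.5, of the B6C3F1 strain, from which the tail had been taken for genotyping. There were 3 SLMAP3 KO embryos (KOAC8-6, KOAC10-5 and KOAC10-8) and 4 WT embryos (KOAC8-1, KOAC10-7, KOAC9-1 and KOAC10-2), with no treatment and no pooling of embryos, and values are given in this order throughout. The KO allele lacks exon 3 of Slmap in all tissues. It was made with a CMV-cre line and then bred without cre, and it removes the long SLMAP3 isoform while the shorter SLMAP isoforms are still made.

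Planar cell polarity is the alignment of cells within the plane of a tissue. In each cell the transmembrane proteins Vangl and Frizzled collect at opposite sides, where Prickle and Dishevelled join them respectively, and the atypical cadherins of the Celsr family bridge neighboring cells. In the vertebrate embryo this system drives convergent extension, the narrowing and lengthening of the body axis that brings the neural folds together, and mice that lack Vangl2, Celsr1, Scrib or both Fzd3 and Fzd6 are known for a neural tube that fails to close along the body. The question here was whether mRNA levels of the core genes differed between KO and WT embryos.

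Expression was measured as FPKM (sequenced fragments corrected for library depth and for transcript length). Slmap itself was at 19.6, 16.0 and 16.6 FPKM across the KO embryos, against 31.2, 23.9, 29.1 and 22.8 FPKM across the WT embryos. The genotypes did not overlap, with the KO embryos lower as the labels imply, although the value counts reads of all SLMAP isoforms. The KO mean was 65.1% of the WT mean, a log2 fold change of -0.59 ± 0.13 (SE), and this did not pass the threshold after adjustment over all genes (limma, adjusted p = 0.278). In an exact permutation test over the 35 ways to divide 7 embryos into 3 and 4, p was 0.0571 (two-sided), which is the smallest value this design allows, so that no single gene can reach 0.05 in that test.

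All 10 core genes were expressed above the minimum for testing (a mean of 1 FPKM over the 7 embryos), and none differed significantly between KO and WT embryos. Of the 10, 6 had a higher mean in KO embryos on the log2 scale and 4 a lower one. Their median log2 fold change was 0.13, beside a median of 0.0105 and 53.1% positive values over the 16095 genes tested. With limma 0 of the 10 had an adjusted p under 0.05, where 0.0373% of all genes tested did, and 0 of the 10 had an unadjusted p under 0.05, where 5.27% of all genes did with a higher and 6.19% with a lower level in KO embryos. The smallest unadjusted p of the 10 was 0.0840, for Celsr2. All of the 95% intervals of the log2 fold changes included 0, and for 9 of the 10 genes they lay within a 1.5-fold change in either direction, Vangl1 being the exception. In RNA from whole embryos, fewer cells of a type and less RNA per cell cannot be told apart.

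**Figure D1:**
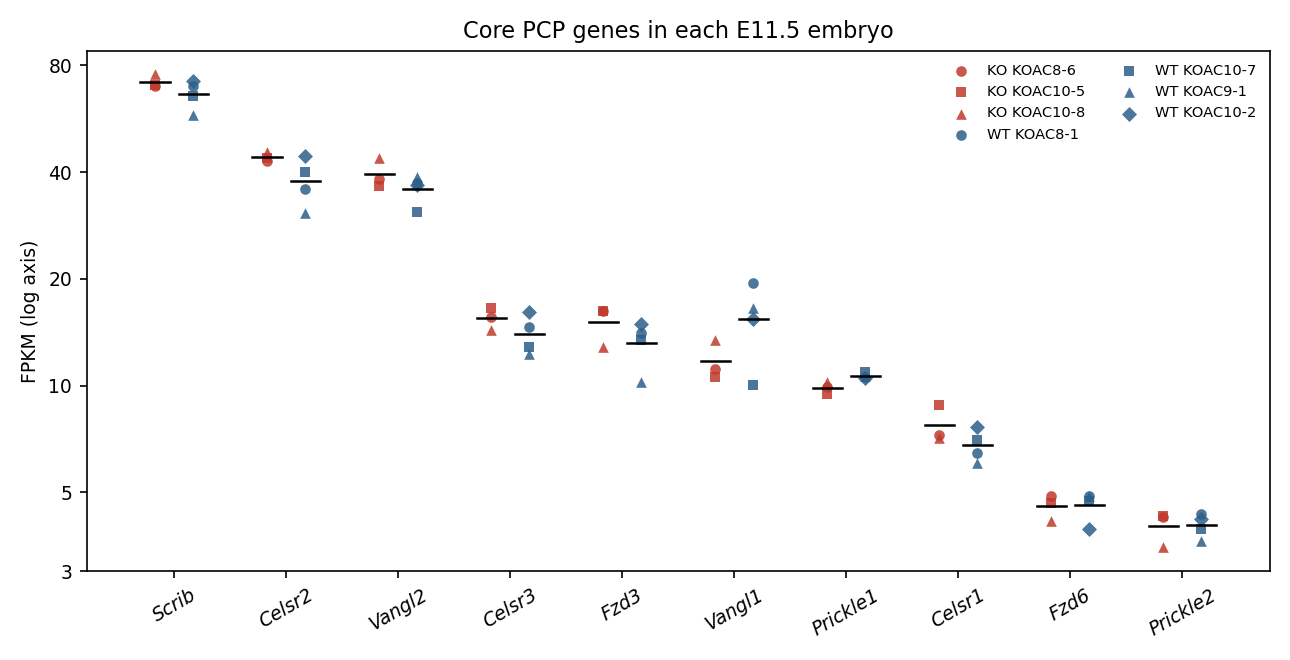
FPKM of the 10 core PCP genes in each of the 7 E11.5 embryos, on a log axis, with genes in order of their mean level; red symbols are KO embryos, blue symbols WT embryos, and black bars the genotype means. Levels run from about 4 FPKM for Prickle2 and Fzd6 to 68.8 FPKM for Scrib, and the KO and WT embryos overlap for every gene but Prickle1.

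The levels of the core genes spanned 17.1-fold. Scrib was the highest, at a mean of 68.8 FPKM over the 7 embryos, above 88.6% of the genes tested. Prickle2 was the lowest at 4.03 FPKM, above 24.4% of them, and the median gene tested was at 12.9 FPKM. Between these lay Celsr2 (40.5 FPKM) and Vangl2 (37.5 FPKM), whose ranges over embryos overlapped each other but not those of any other member.

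A middle set followed with Celsr3 at 14.6, Fzd3 at 14.0, Vangl1 at 13.8 and Prickle1 at 10.3 FPKM, in which each neighboring pair in the order overlapped. Celsr1 at 7.20 FPKM was below Prickle1 and above Fzd6 in 7 of 7 embryos with no overlap, while Fzd6 at 4.59 FPKM overlapped with Prickle2. The order depends on transcript length. By the authors' mean normalized count, which is not divided by length, Celsr2 came first (13994) and Scrib next (12472), Fzd3 was the third (10430), and Fzd6 was the last (1099).

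Vangl1 and Vangl2 are paralogous proteins of the cell membrane that mark one side of a polarized cell. Vangl1 (ENSMUSG00000027860, chromosome 3, 102153583 to 102204693, minus strand, GRCm38) was at 11.1, 10.6 and 13.4 FPKM across the KO embryos, against 19.5, 10.02, 16.6 and 15.5 FPKM across the WT embryos. The KO embryos were below 3 of the 4 WT embryos but above KOAC10-7, the lowest of all 7, so that the groups overlapped. The means were 11.7 ± 1.51 (SD, n = 3) and 15.4 ± 3.97 FPKM (SD, n = 4), and the KO mean was 76.2% of the WT mean. The log2 fold change was -0.34 ± 0.21 (SE), with an interval of -0.82 to 0.15 (limma, adjusted p = 0.555; exact permutation p = 0.229).

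Vangl1 varied more than any other core gene, with a coefficient of variation of 25.6% over the 7 embryos and a highest value 1.95 times the lowest. The size of its difference depended on 2 WT libraries, in opposite directions. Without KOAC8-1, the embryo with the highest Vangl1, the log2 fold change was -0.22 (limma, unadjusted p = 0.303, adjusted p = 0.691). Without KOAC10-7, the lowest, it was -0.52 (limma, unadjusted p = 0.00472, adjusted p = 0.489).

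Vangl2 (ENSMUSG00000026556, chromosome 1, 172000960 to 172028444, minus strand), the gene mutated in the Loop-tail mouse, was at 38.2, 36.6 and 43.8 FPKM across the KO embryos, against 37.3, 30.9, 38.6 and 36.8 FPKM across the WT embryos. The groups overlapped, with the KO embryo KOAC10-8 highest and the WT embryo KOAC10-7 lowest. The KO mean of 39.5 ± 3.80 FPKM stood beside a WT mean of 35.9 ± 3.42 FPKM, a log2 fold change of 0.14 ± 0.09 (SE) with an interval of -0.09 to 0.36 (limma, adjusted p = 0.605; exact permutation p = 0.4). It was 0.06 without KOAC10-8 and 0.07 without KOAC10-7.

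Since the signs of the Vangl1 and Vangl2 differences were known from earlier results of these data, their ratio within each embryo is a description with no test. Vangl2 was above Vangl1 in all 7 embryos. The ratio of Vangl2 to Vangl1 FPKM was 3.43, 3.45 and 3.26 in the KO embryos and 1.91, 3.09, 2.33 and 2.38 in the WT embryos. The 3 KO embryos lay close together and above every WT embryo, KOAC10-7 being the nearest. The ratios of Prickle1 to Prickle2 and of Fzd3 to Fzd6 overlapped between the genotypes. Among single genes tested, 5.61% had KO embryos wholly above WT embryos, and no such share was computed for ratios. On the log2 scale the ratio was higher by 0.50 in KO embryos, and by 0.39 to 0.62 when each embryo was left out in turn. The summed FPKM of both genes was 51.3 ± 5.31 in KO and 51.3 ± 7.17 in WT embryos.

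The FPKM of Vangl1 also rests on a short assigned transcript length. The normalized count and FPKM of each gene together imply the average transcript length used for it, on a scale set with 1133 genes that have a single annotated transcript. For Vangl1 this was 1803 nt, 27.6% of its longest transcript of 6531 nt, with 8 annotated transcripts. For Vangl2 it was 4490 nt, 68.8% of the longest. The level of Vangl1 relative to Vangl2 thus depends on this assignment, and its part in the spread of Vangl1 between embryos was not tested.

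**Figure D2:**
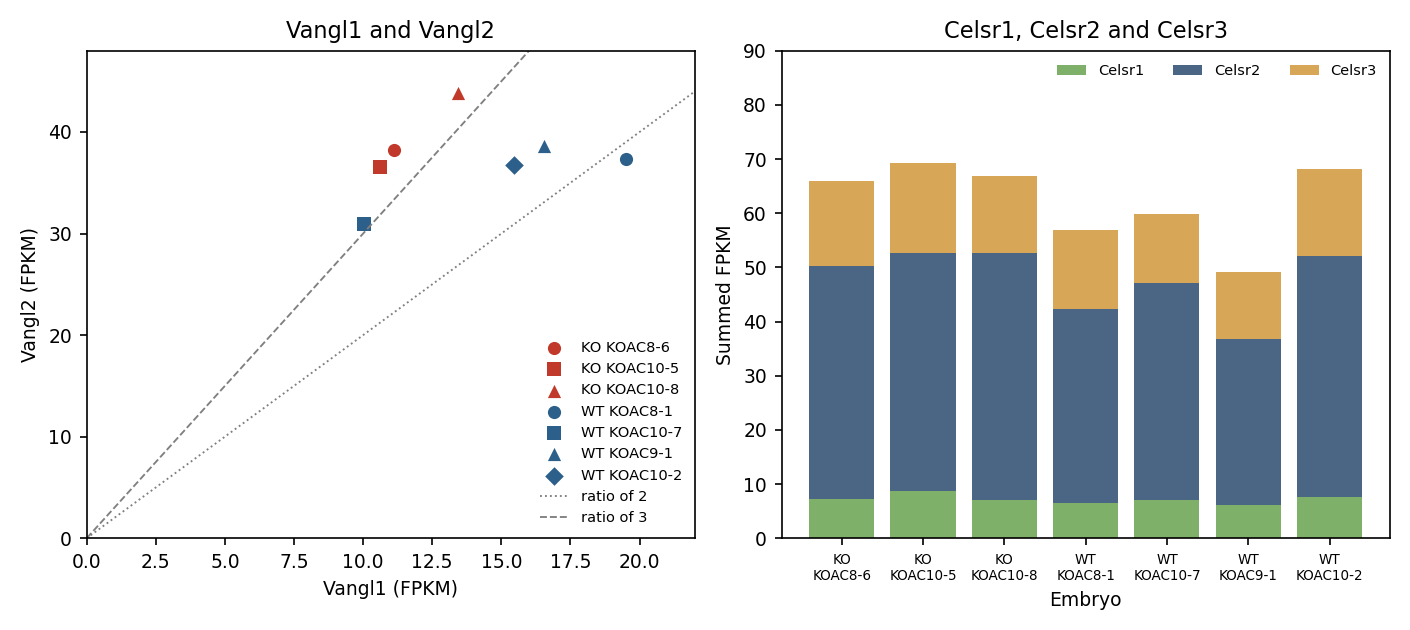
Left, FPKM of Vangl2 against Vangl1 in each embryo (red, KO; blue, WT), with lines at ratios of 2 and 3; the 3 KO embryos lie above the line for 3, with the WT embryo KOAC10-7 just above that line and the other WT embryos below it. Right, summed FPKM of Celsr1, Celsr2 and Celsr3 per embryo as stacked bars from 0, with Celsr2 at 62.7% to 68.0% of each bar and the WT embryo KOAC9-1 lowest.

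Prickle1 and Prickle2 are cytoplasmic proteins with LIM domains that gather on the Vangl side of the cell. Prickle1 (ENSMUSG00000036158, chromosome 15, 93499114 to 93595891, minus strand) was at 9.914, 9.468 and 10.24 FPKM across the KO embryos, against 10.61, 10.91, 10.65 and 10.48 FPKM across the WT embryos. It was the only core gene whose groups did not overlap, all KO embryos being below all WT embryos. Over all genes tested, 5.98% had KO embryos wholly below and 5.61% wholly above the WT embryos, and 1 separated gene among the 10 is near that background. The KO mean was 92.6% of the WT mean (9.87 ± 0.388 against 10.66 ± 0.179 FPKM), with a log2 fold change of -0.10 ± 0.05 (SE) and an interval of -0.22 to 0.02 (limma, adjusted p = 0.506; exact permutation p = 0.0571, the smallest possible). Prickle1 was also the most even of the core genes, with a coefficient of variation of 4.77% over the 7 embryos.

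Prickle2 (ENSMUSG00000030020, chromosome 6, 92370908 to 92706155, minus strand) was at 4.27, 4.28 and 3.51 FPKM across the KO embryos, against 4.35, 3.94, 3.64 and 4.22 FPKM across the WT embryos. The values were interleaved, and the means were 4.02 ± 0.438 and 4.04 ± 0.316 FPKM. Its log2 fold change of -0.01 ± 0.09 (SE) had an interval of -0.22 to 0.20 (limma, adjusted p = 0.983; exact permutation p = 0.914). Prickle1 was 2.21 to 2.92 times Prickle2 over the embryos, with no separation of the genotypes.

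The Celsr proteins are large cadherins with a receptor-like part in the membrane, and they bind one another across cell borders. Celsr1 acts in skin and in neural tube closure, while Celsr2 and Celsr3 are best known from neurons and from cells with motile cilia. All 3 had a higher mean in KO embryos, and for all 3 the groups overlapped.

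Celsr2 (ENSMUSG00000068740, chromosome 3, 108390851 to 108415552, minus strand) was at 43.0, 43.9 and 45.5 FPKM across the KO embryos, against 35.8, 40.01, 30.8 and 44.4 FPKM across the WT embryos. The KO embryos lay within a narrow band above 3 of the WT embryos, and the WT embryo KOAC10-2 lay inside that band. The means were 44.2 ± 1.25 and 37.7 ± 5.82 FPKM, the KO mean being 117% of the WT mean. The log2 fold change of 0.23 ± 0.12 (SE), with an interval of -0.04 to 0.51, was the only one of the 10 beyond 2 standard errors (limma, unadjusted p = 0.0840, adjusted p = 0.489; exact permutation p = 0.171). It was 0.14 without the WT embryo KOAC9-1, and 0.31 without KOAC10-2, with an unadjusted p of 0.0184 and an adjusted p of 0.412 (limma).

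Celsr1 (ENSMUSG00000016028, chromosome 15, 85898929 to 86033777, minus strand) was at 7.25, 8.81 and 7.12 FPKM across the KO embryos, against 6.47, 7.03, 6.06 and 7.64 FPKM across the WT embryos. One KO embryo, KOAC10-5, stood above the rest, and the other KO embryos lay inside the WT range. Celsr1 differed by 0.16 ± 0.10 (SE) on the log2 scale, with an interval of -0.08 to 0.40 (limma, adjusted p = 0.566; exact permutation p = 0.229), and it was 0.07 without KOAC10-5.

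Celsr3 (ENSMUSG00000023473, chromosome 9, 108826320 to 108852969, plus strand) was at 15.6, 16.6 and 14.3 FPKM across the KO embryos, against 14.7, 12.9, 12.3 and 16.1 FPKM across the WT embryos. The highest value was in a KO embryo and the lowest in a WT embryo, with the others mixed between them. For Celsr3 the log2 fold change was 0.14 ± 0.10 (SE), with an interval of -0.09 to 0.38 (limma, adjusted p = 0.609; exact permutation p = 0.286). It was 0.09 without the WT embryo KOAC9-1 and 0.21 without the WT embryo KOAC10-2.

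Within the family, Celsr2 made up 62.7% to 68.0% of the summed FPKM in each embryo, Celsr3 21.4% to 25.8% and Celsr1 10.6% to 12.7%. These shares overlapped between the genotypes. The sum of the family was 67.4 ± 1.75 FPKM for KO embryos and 58.5 ± 7.86 FPKM for WT embryos, and the groups overlapped through KOAC10-2 at 68.1 FPKM.

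Fzd3 and Fzd6 are the Frizzled receptors that act redundantly in PCP of the mouse neural tube and inner ear, and both receive Wnt ligands. Fzd3 (ENSMUSG00000007989, chromosome 14, 65192449 to 65262463, minus strand) was at 16.3, 16.2 and 12.8 FPKM across the KO embryos, against 14.1, 13.4, 10.24 and 14.9 FPKM across the WT embryos. KO embryos held the highest and WT embryo KOAC9-1 the lowest values, while KOAC10-8 lay inside the WT range. For Fzd3 the log2 fold change was 0.19 ± 0.14 (SE), with an interval of -0.14 to 0.52 (limma, adjusted p = 0.621; exact permutation p = 0.343), and it was 0.08 without KOAC9-1 and 0.30 without the KO embryo KOAC10-8. Fzd3 shares chromosome 14 with Slmap, at a distance of 38.7 Mb.

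Fzd6 (ENSMUSG00000022297, chromosome 15, 39006034 to 39038188, plus strand) was at 4.89, 4.67 and 4.15 FPKM across the KO embryos, against 4.88, 4.73, 4.88 and 3.95 FPKM across the WT embryos. The groups covered nearly the same range, with means of 4.57 ± 0.377 and 4.61 ± 0.444 FPKM. The log2 fold change was -0.01 ± 0.09 (SE), with an interval of -0.22 to 0.20 (limma, adjusted p = 0.976; exact permutation p = 0.971). Fzd3 was 2.10 to 3.78 times Fzd6, the ratio being lowest in KOAC9-1 and highest in KOAC10-2, both WT.

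Scrib is a scaffold protein of the cell's basolateral side that binds Vangl2 and is shared between planar and apicobasal polarity. Scrib (ENSMUSG00000022568, chromosome 15, 76047158 to 76069784, minus strand) was at 70.1, 70.4 and 75.5 FPKM across the KO embryos, against 69.8, 65.7, 57.8 and 72.2 FPKM across the WT embryos. The KO embryos lay above 3 of the WT embryos, and KOAC10-2 lay among them. The means were 72.0 ± 3.01 and 66.4 ± 6.31 FPKM, with a log2 fold change of 0.12 ± 0.08 (SE) and an interval of -0.07 to 0.31 (limma, adjusted p = 0.595; exact permutation p = 0.229). Without KOAC9-1 it was 0.06.

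**Figure D3:**
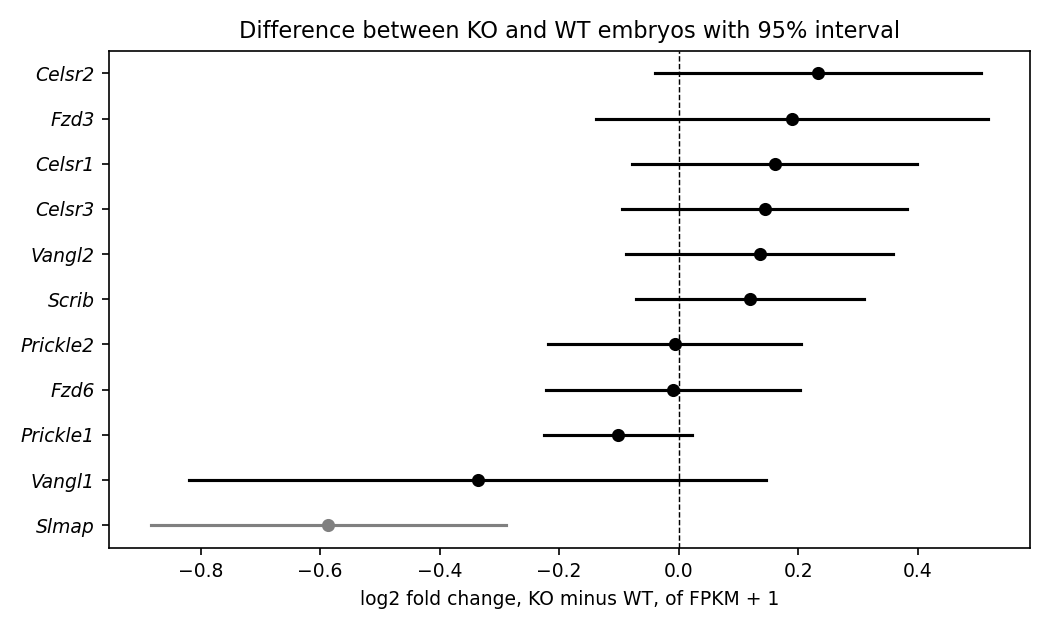
Log2 fold change of KO minus WT embryos (FPKM + 1) for Slmap, in gray, and the 10 core PCP genes, with 95% intervals from limma as lines and 0 as a dashed line. Only the interval of Slmap lies wholly below 0 (-0.88 to -0.29), and the widest interval of the core genes is that of Vangl1.

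Counting error was small beside the spread between embryos. At the authors' mean normalized counts it came to at most 3.02% (for Fzd6), whereas the median coefficient of variation of the core genes was 10.6%, next to 10.4% for all genes tested. The kit does not mark strand, so that reads of overlapping genes on the other strand could not be told apart from those of the gene. One such gene is Gm16160 at Vangl1, which has no value here. On the same strand, Gm23156 overlaps Celsr3 by 86 bp and was at a mean of 20.2 FPKM. Its part in the level of Celsr3 was not tested.

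A single WT embryo, KOAC9-1, had the lowest level of 5 of the 10 core genes: Celsr1, Celsr2, Celsr3, Scrib and Fzd3. Without it, all 5 kept a higher mean in KO embryos, by 0.06 to 0.14 on the log2 scale. It is the only embryo labelled KOAC9, so that a block for the KOAC number takes it out of the comparison. The 5 log2 fold changes with that block were therefore the same values and are not a second check. The highest levels were spread over 5 embryos, and for more of the genes they were in a KO than in a WT embryo. WT embryos were highest only for Vangl1 and Prickle2 (KOAC8-1) and Prickle1 (KOAC10-7). Lowest levels were in WT embryos for every core gene but Prickle1 and Prickle2. The KO embryo KOAC8-6 was highest for Fzd3 and Fzd6. KOAC10-8 was highest for Vangl2, Celsr2 and Scrib, but lowest for Prickle2. The KO embryo KOAC10-5 was highest for Celsr1 and Celsr3 and lowest for Prickle1.

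Several core genes varied together from embryo to embryo. Over the 7 embryos, which share genotype and library as sources of variation, Pearson's r of log2(FPKM + 1) was 0.88 for Celsr2 and Scrib (Spearman's rho 0.96), and 0.88 for Celsr3 and Fzd3 (rho 0.86). Among Celsr1, Celsr2, Celsr3 and Fzd3 the 6 pairs had r between 0.72 and 0.88. Without the 2 embryos farthest from the median of the gene named first in this order, r was between 0.07 and 0.86. It rose for Celsr1 and Celsr2, from 0.79 to 0.86, and fell for the other pairs. Prickle1 ran opposite to these 4 genes, with r between -0.76 and -0.52. The range was -0.59 to -0.09 without the 2 embryos farthest from the median of the Celsr gene, or of Prickle1 in its pair with Fzd3. For that pair, r was -0.67 when the median of Fzd3 was used instead, so that these ranges depend on the gene chosen. These are descriptions of 7 points, and the embryos farthest from the median carry part of them.

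**Figure D4:**
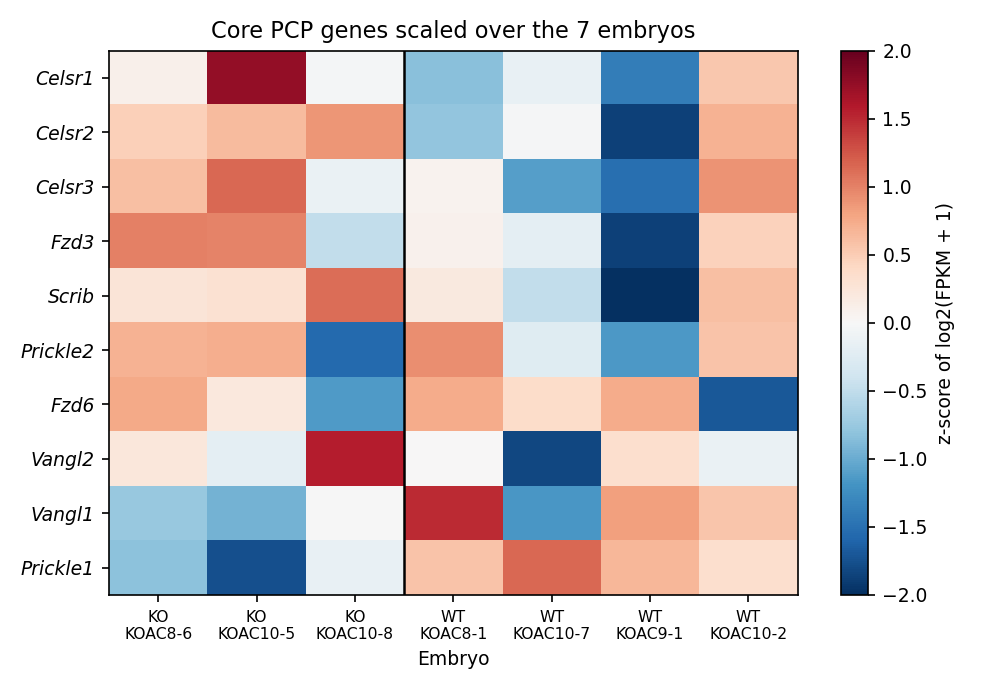
Level of each core PCP gene (vertical) in each embryo (horizontal, KO left of the black line and WT right) as a z-score of log2(FPKM + 1) over the 7 embryos, from blue (low) to red (high). The WT embryo KOAC9-1 is lowest for Celsr1, Celsr2, Celsr3, Fzd3 and Scrib, and only Prickle1 is separated by genotype.

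Beyond the core, 50 further genes of the PCP pathway were listed by role, of which 48 were tested, since Prickle4 and Dchs2 were below 1 FPKM. None had an adjusted p under 0.05. At an unadjusted p under 0.05, 2 were higher and 2 lower in KO embryos, 8.33% of the 48, and their median log2 fold change was 0.02. Over both directions, 11.5% of all genes tested had an unadjusted p under 0.05, and 11.6% had KO and WT embryos that did not overlap.

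The 2 that were higher are Dvl2 and Intu. Dvl2, one of the Dishevelled proteins that relay the Frizzled signal, was at 36.1, 33.8 and 36.1 FPKM across the KO embryos, against 32.7, 30.7, 29.5 and 32.0 FPKM across the WT embryos, with no overlap. Its log2 fold change was 0.17 ± 0.05 (SE; limma, unadjusted p = 0.0140, adjusted p = 0.348). Dvl1 and Dvl3 had log2 fold changes of 0.17 and 0.07, with overlapping groups. Ankrd6, of the same list, had KO embryos wholly above WT embryos, with a log2 fold change of 0.12 (limma, unadjusted p = 0.102, adjusted p = 0.514).

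Intu, a PCP effector that acts in the formation of cilia, was at 5.58, 4.63 and 5.13 FPKM across the KO embryos, against 4.52, 4.05, 4.07 and 3.86 FPKM across the WT embryos. The groups did not overlap, and the log2 fold change was 0.25 ± 0.08 (SE; limma, unadjusted p = 0.0168, adjusted p = 0.354). The 13 effectors were otherwise divided, 7 above and 6 below 0, down to -0.15 for Wdpcp.

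The 2 that were lower belong to the Wnt ligands and coreceptors. Ror1, a receptor tyrosine kinase for Wnt5a, was at 5.71, 5.77 and 5.62 FPKM across the KO embryos, against 6.63, 6.69, 7.00 and 6.38 FPKM across the WT embryos, with no overlap. Its log2 fold change was -0.20 ± 0.06 (SE; limma, unadjusted p = 0.0115, adjusted p = 0.344). Wnt11, a ligand of convergent extension, was at 8.90, 11.1 and 5.95 FPKM across the KO embryos, against 11.8, 12.6, 16.1 and 10.66 FPKM across the WT embryos. One KO embryo, KOAC10-5, overlapped with the WT embryos. The log2 fold change of Wnt11 was -0.54 ± 0.21 (SE; limma, unadjusted p = 0.0346, adjusted p = 0.405). The other 7 genes of this list lay between -0.03 and 0.08.

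In the remaining lists no gene had an unadjusted p under 0.05. The log2 fold changes of the 8 genes tested of the Scrib module and its adaptors ran from 0.01 for Arhgef7 to 0.16 for Git1, with a median of 0.09. Those of the 5 genes tested of the Fat-Dachsous system, a set of cadherins that works beside the core pathway, ran from -0.24 for Fat4 to -0.03 for Fat1, with a median of -0.14. Over all genes tested 53.1% were positive, and the signs within these lists were not tested. The 8 genes of PCP trafficking and turnover ran from -0.09 for Dact1 to 0.13 for Arfrp1.

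**Figure D5:**
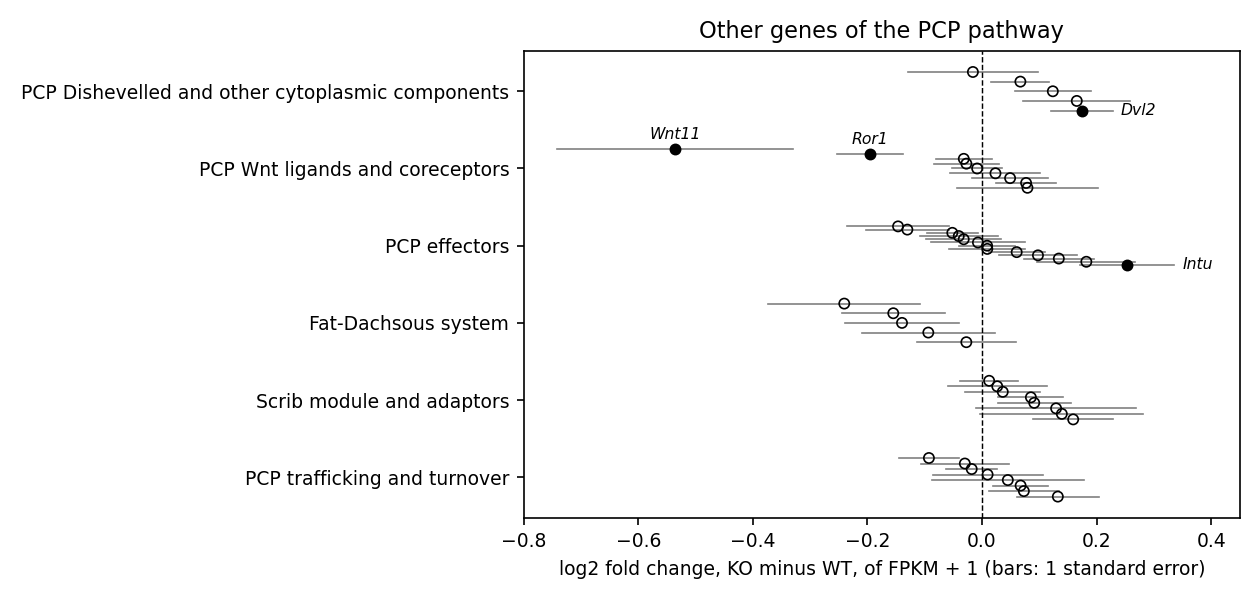
Log2 fold change of KO minus WT embryos (FPKM + 1) for the 48 tested genes of 6 lists of the wider PCP pathway, with lines of 1 standard error; filled points have an unadjusted p under 0.05. The filled points are Dvl2 and Intu to the right of 0 and Wnt11 and Ror1 to the left.

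Markers of cell types in a whole embryo are given beside these values. None had an adjusted p under 0.05, and counts at an unadjusted p under 0.05 stand beside 6.19% of all genes lower and 5.27% higher in KO embryos. Of 8 skeletal muscle markers all 8 had an unadjusted p under 0.05 with a lower level in KO embryos. Their summed FPKM was 293 to 340 in KO and 450 to 598 in WT embryos. Actc1 led this sum, at 136 to 150 FPKM in KO and 158 to 194 FPKM in WT embryos. The name of the list does not limit its genes to skeletal muscle, and heart RNA in the sum was not separated. At an unadjusted p under 0.05, KO embryos had higher levels of 6 of the 7 neural progenitor markers. The summed FPKM of the 7 was 661 to 740 in KO and 598 to 683 in WT embryos. The exception was Fabp7, the most abundant of the 7, with a log2 fold change of -0.02 (limma, unadjusted p = 0.782, adjusted p = 0.932). Of 6 heart markers 3 were higher (411 to 533 against 353 to 434 FPKM), of 8 neuron markers 0 passed (610 to 720 against 613 to 765 FPKM), of 8 epithelium markers 0 passed (61.7 to 79.5 against 57.5 to 65.8 FPKM), and none of these marker genes was at 0 in any embryo.

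The sum of the muscle markers was lowest in the 3 KO embryos and highest in KOAC9-1, the embryo lowest for 5 core genes. Over the 7 embryos, the Pearson's r of the 10 core genes with that sum ran from -0.84 for Celsr2 to 0.71 for Prickle1, with Prickle2 at -0.03. Over all 6 marker lists the 60 values ran from -0.84 to 0.75, the highest being Vangl2 with the heart markers (Spearman's rho 0.39). Prickle2 with the epithelium markers was at -0.80 (rho -0.36). The part of tissue makeup in the values of the core genes was not tested.

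Embryos also differed in liver markers within both genotypes. The summed FPKM of the 8 ran from 23.5 to 435 in KO and from 34.9 to 686 in WT embryos, and Afp, the highest of them, was at 255, 5.18 and 308 FPKM across the KO embryos, against 376, 1.30, 278 and 2.49 FPKM across the WT embryos. The embryos low in Afp were KOAC10-5, KOAC10-7 and KOAC10-2. In them the sum was mostly Ttr, at 15.3 of 23.5, 32.3 of 34.9 and 35.3 of 41.0 FPKM. Of the 8 listed liver markers 1, Ttr, had an unadjusted p under 0.05. Its log2 fold change was -1.40 ± 0.17 (SE; limma, unadjusted p = 6.09e-05, adjusted p = 0.0891). It was at 14.4, 15.3 and 15.1 FPKM across the KO embryos, against 46.4, 32.3, 53.1 and 35.3 FPKM across the WT embryos. Ttr did not follow Afp across the KO embryos, whereas the WT embryos low in Afp were also those lower in Ttr. In the embryos low in Afp, Alb was at 0.313 to 1.63 FPKM while Ttr was at 15.3 to 35.3 FPKM. Ttr thus did not track liver as Afp and Alb did, and the source of its difference was not tested. KOAC10-7, low in Afp, was also the WT embryo with the lowest Vangl1, whereas KOAC10-2, another WT embryo low in Afp, had Vangl1 at 15.5 FPKM. Over the 7 embryos, Pearson's r of Vangl1 with the liver sum, Ttr included, was 0.60 (Spearman's rho 0.86). For the 10 core genes this r ran from -0.76 to 0.62. With log2 Afp as a covariate in limma, 3 of the 10 core genes had an unadjusted p under 0.05, beside 11.7% of all genes. In that fit Vangl1 had a log2 fold change of -0.43 (limma, unadjusted p = 0.0301, adjusted p = 0.379), Celsr1 one of 0.21 (unadjusted p = 0.0211, adjusted p = 0.360) and Celsr2 one of 0.28 (unadjusted p = 0.0280, adjusted p = 0.371).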

How the data were processed

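RNA-seq libraries (TruSeq RNA v2) of 7 whole E11.5 embryos were analyzed. The submitters' processing notes name Salmon, DESeq2, MultiQC and the build GRCm38, with no versions. The authors deposited 1 FPKM value per gene and embryo. They also deposited a mean signal per gene (counts divided by size factors), used here only for depth and transcript length. The authors' fold changes and p-values were not used, and 0 value columns were left without an embryo.

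The genotypes were compared in R 4.3.3 by limma 3.58.1 (eBayes with a trend, no covariate) on log2(FPKM + 1), which understates changes of low genes. A minimum mean of 1 FPKM over the 7 embryos was required, and p-values were adjusted over 16095 genes by the Benjamini-Hochberg method. The steps were tested on simulated data. Exact permutation tests (SciPy 1.17.1) were two-sided. Replicates are single embryos by their labels. Counts per embryo were not analysed here, so that depth per embryo is unknown. FPKM summed to 770063 to 861448 per embryo.

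The members and lists were chosen with earlier results of these data known. All 10 members and Slmap are named. Of each other PCP list, genes with an unadjusted p under 0.05, or otherwise the highest and lowest fold changes, are named, and of marker lists those of highest level. Dvl1, Dvl3, Ankrd6, Wdpcp and Ttr were named after their values were seen. Positions are from GENCODE M21. No sequences are shown.

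Alternatives were a pseudocount of 0.1, no filter, a minimum of 5 FPKM, other scalings, a robust fit, Afp or the KOAC number in the fit, and leaving out each embryo.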

Additional observations from a re-analysis of the deposited data

Results flagged for a closer look

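Of 19 values examined in the 4 WT embryos (the levels of the core genes, their paralogue ratios and sums), 1 had an embryo far from the others. Fzd6 was at 3.95 FPKM in KOAC10-2 and at 4.73 to 4.88 FPKM in the other WT embryos, so that the gap to the nearest embryo was 0.834 of the whole range, above the critical value of 0.829 for 4 samples. Chance alone marks about 1 in 20 groups, or 0.95 of the 19. The KO embryos, at 4.15 to 4.89 FPKM, lay in nearly the same range, and groups of 3 were not examined.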

How the results depend on the processing

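In limma no core gene had an adjusted p under 0.05 under any alternative run, the smallest being 0.360 (Celsr1, with log2 Afp as a covariate). Of the core genes 8 kept their direction throughout. Fzd6, at -0.01, was 0.0141 with the KOAC number as a block and ran from -0.0684 to 0.0453 when each embryo was left out. Prickle2, also at -0.01, was 0.0048 with log2 Afp and ran from -0.0454 to 0.068 when each embryo was left out. Core genes with an unadjusted p under 0.05 numbered 3 with log2 Afp, where 11.7% of all genes passed. They numbered 0 to 1 when each embryo was left out. There was 1 without KOAC10-7 and 1 without KOAC10-2, where 9.5% and 9.96% of all genes passed. Core genes whose groups did not overlap numbered 1 to 4, with 4 without KOAC10-2, where 16.6% of all genes did not overlap. Leaving out an embryo cannot undo a separation, only add to that count. Wider PCP genes with an unadjusted p under 0.05 numbered 3 to 10, with 10 without KOAC10-5, where 16.4% of all genes passed, and the cause was not tested. Fzd6 and Prickle2 have no value at a minimum of 5 FPKM, and overlap has none under a block, a covariate or a robust fit. The replicate numbers only follow sample order and pair no embryos. The KOAC number, whose meaning the labels do not give, was fitted as a block instead and left all 10 core genes on the same side of the threshold. By the design its log2 fold changes equal those without KOAC9-1, so that it adds no separate check of them.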

Other observations

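The genes whose levels over the 7 embryos were most like those of each core gene were taken from all 16095 tested, by Pearson's r of log2(FPKM + 1), as a description with no test. For Fzd3 these were Gm47071 (r = 0.99) and Caprin2 (r = 0.98). For Scrib they were Mical1 and H2afz (both r = 0.98), and for Vangl1 Gm16024 and H2afj (both r = 0.98). Tmem33 and Ahsa2 were most like Vangl2, and Egln1 and Zswim6 most like Celsr1, all with r = 0.98. The highest r was 0.98 for Celsr2 (Gm3636) and for Prickle1 (Ano10), and 0.97 for Celsr3 (Ppp1r35), Prickle2 (Zdhhc21) and Fzd6 (Gm27000). Each is the highest of 16095 values over only 7 embryos.

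Among the core genes themselves, the most alike pair was Celsr2 and Scrib. Their r of 0.88 became 0.97 without the 2 embryos farthest from the median of Celsr2, but 0.42 without the 2 farthest from the median of Scrib.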
